A study of Mus musculus with 6 samples.

Results

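The genes described here drive and check mitosis: the G2/M cyclins, the mitotic kinases, the spindle checkpoint, the kinetochore, the mitotic kinesins and the midzone that directs cytokinesis. They were taken as every probe set that carries 1 of 40 listed gene symbols, and 39 of the 40 had a probe set named for that gene alone, out of 19938 genes measured. Ccnb1, which encodes cyclin B1, had none and is not analysed here. The arrays measured RNA from RAG2+ B lineage cells of mice labelled RAG2-GFP/129Sve at post-natal day 17 to 25, kept in a regular SPF facility, with no other genotype or treatment named for either tissue. Cells positive for the GFP reporter were sorted from the small intestinal lamina propria (the connective tissue under the gut epithelium) or from the bone marrow. Each experiment pooled 8 to 12 mice, each tissue gave 3 pools labelled as independent replicates, and each pool was read on 1 array. A pool is an average over several animals and over every cell in the gate, so in these bulk samples fewer dividing cells and less mitotic RNA per cell cannot be told apart. Rag2, the gene whose reporter defined the sort, read 5.67, 5.75 and 6.06 in lamina propria pools 1 to 3, near the array medians over all genes (5.39 to 5.62), and 7.76, 8.49 and 8.28 in the marrow pools. The tissues did not overlap, and the difference was -2.35 with a 95% interval from -2.95 to -1.75 (limma adjusted p = 0.155, and 0.0476 when pool numbers entered as a block). The block is an alternative only, since the pool numbers were not taken as pairs. Rag1, the partner of Rag2 in recombination, differed by -1.05 without overlap. The libraries labelled as RAG2+ cells of the lamina propria thus had lower Rag2 values than those of the marrow in every pool, and the part of this in the differences of the mitosis genes was not tested.

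Early B cells alternate between division and recombination: pro-B and large pre-B cells divide, and small pre-B cells leave the cycle while they rearrange the light chain genes. Transcripts of mitosis genes accumulate in G2 and M and are kept low in resting cells. In many of these genes this timing runs through the cell cycle genes homology region (CHR), a short promoter element bound by the DREAM and B-Myb-MuvB complexes, often next to CCAAT boxes bound by NF-Y. The list is therefore often read as a measure of how many cells of a sample divide.

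The promoters of 6 members with a single RefSeq window are shown first, because members sharing these elements did not all share 1 expression pattern. They are the proliferation markers Top2a and Mki67, Cdk1 with the most positive difference, Kif15 and Cenpe, which stood highest over the other marrow pools in marrow pool 3, and Mad2l1 of the checkpoint. Haus1 and Cenpk, with the largest differences, are not among them, and Cenpk has 3 windows. Each line gives the 120 bases before the RefSeq start site, 5′ to 3′ on the strand of the gene, in build GRCm38.p6. Capitals mark the CHR motif TTTGAA and the CCAAT motif, searched on both strands (TTCAAA and ATTGG on the other strand). The positions are chr11:99024190-99024309 on the minus strand for Top2a, chr7:135716380-135716499 on the minus strand for Mki67, chr10:69352913-69353032 on the minus strand for Cdk1, chr9:122950961-122951080 on the plus strand for Kif15, chr3:135212443-135212562 on the plus strand for Cenpe and chr6:66535101-66535220 on the plus strand for Mad2l1.
Top2a: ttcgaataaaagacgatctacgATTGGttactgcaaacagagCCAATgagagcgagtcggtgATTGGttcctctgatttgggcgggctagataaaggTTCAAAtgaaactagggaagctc
Mki67: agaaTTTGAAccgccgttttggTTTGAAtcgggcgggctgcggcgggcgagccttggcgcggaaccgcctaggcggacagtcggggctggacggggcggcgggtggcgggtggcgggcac
Cdk1: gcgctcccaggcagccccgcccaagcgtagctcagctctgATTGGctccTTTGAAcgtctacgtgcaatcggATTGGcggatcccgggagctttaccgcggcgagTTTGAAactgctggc
Kif15: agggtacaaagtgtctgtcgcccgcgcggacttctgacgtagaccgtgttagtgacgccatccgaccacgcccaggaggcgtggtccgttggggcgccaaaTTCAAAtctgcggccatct
Cenpe: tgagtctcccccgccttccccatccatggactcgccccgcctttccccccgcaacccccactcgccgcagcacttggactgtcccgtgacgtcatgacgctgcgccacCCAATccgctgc
Mad2l1: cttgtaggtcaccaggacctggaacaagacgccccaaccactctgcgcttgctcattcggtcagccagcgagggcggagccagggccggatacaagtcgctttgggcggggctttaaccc

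RefSeq promoter windows, from 250 bases before to 50 after the start site, were found for 33 of the 40 listed genes, in 38 windows. Between 60 bases before and 50 after the start, the CHR motif stood in 24 of these 38 windows (63.2%), against 5.5% of all 32851 windows of the table. The CCAAT motif stood in 21 of the 38 windows (55.3%) over the same stretch, against 15.8% of all windows. A match is a description of the letters and not of a bound factor. Cdk1 carries 2 CHR matches in the stretch shown and Top2a carries 1 with 3 CCAAT matches. Lamina propria pools 1 and 2 lay below every marrow pool for Top2a and above every one for Cdk1, as given below. The part of these motifs in the differences was not tested.

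As a group the mitosis genes lay lower in the lamina propria than in the bone marrow, but not evenly: 30 of 39 had a negative difference (lamina propria minus bone marrow, in log2 RMA units) and 9 a positive one. The median difference was -0.42, where that over all genes was 0.22, so that the list stood 0.64 below it. Differences below 0 made up 32.4% of all genes. The sign of the list median was negative as deposited, with each array centred on its median (-0.52), after quantile normalization (-0.41) and after cyclic loess normalization (-0.55), and loess left 35 of 39 members below 0. For 7 members the tissues did not overlap and the lamina propria was the lower one, where this held for 7.27% of all genes. For no member did it lie above without overlap, against 14.8% of all genes. In limma over all genes, no member and no other gene reached an adjusted p under 0.05 (0% in either direction). At an unadjusted p under 0.05 limma gave 8 members lower and 0 higher, against 8.15% and 5.53% of all genes.

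**Figure D1:**
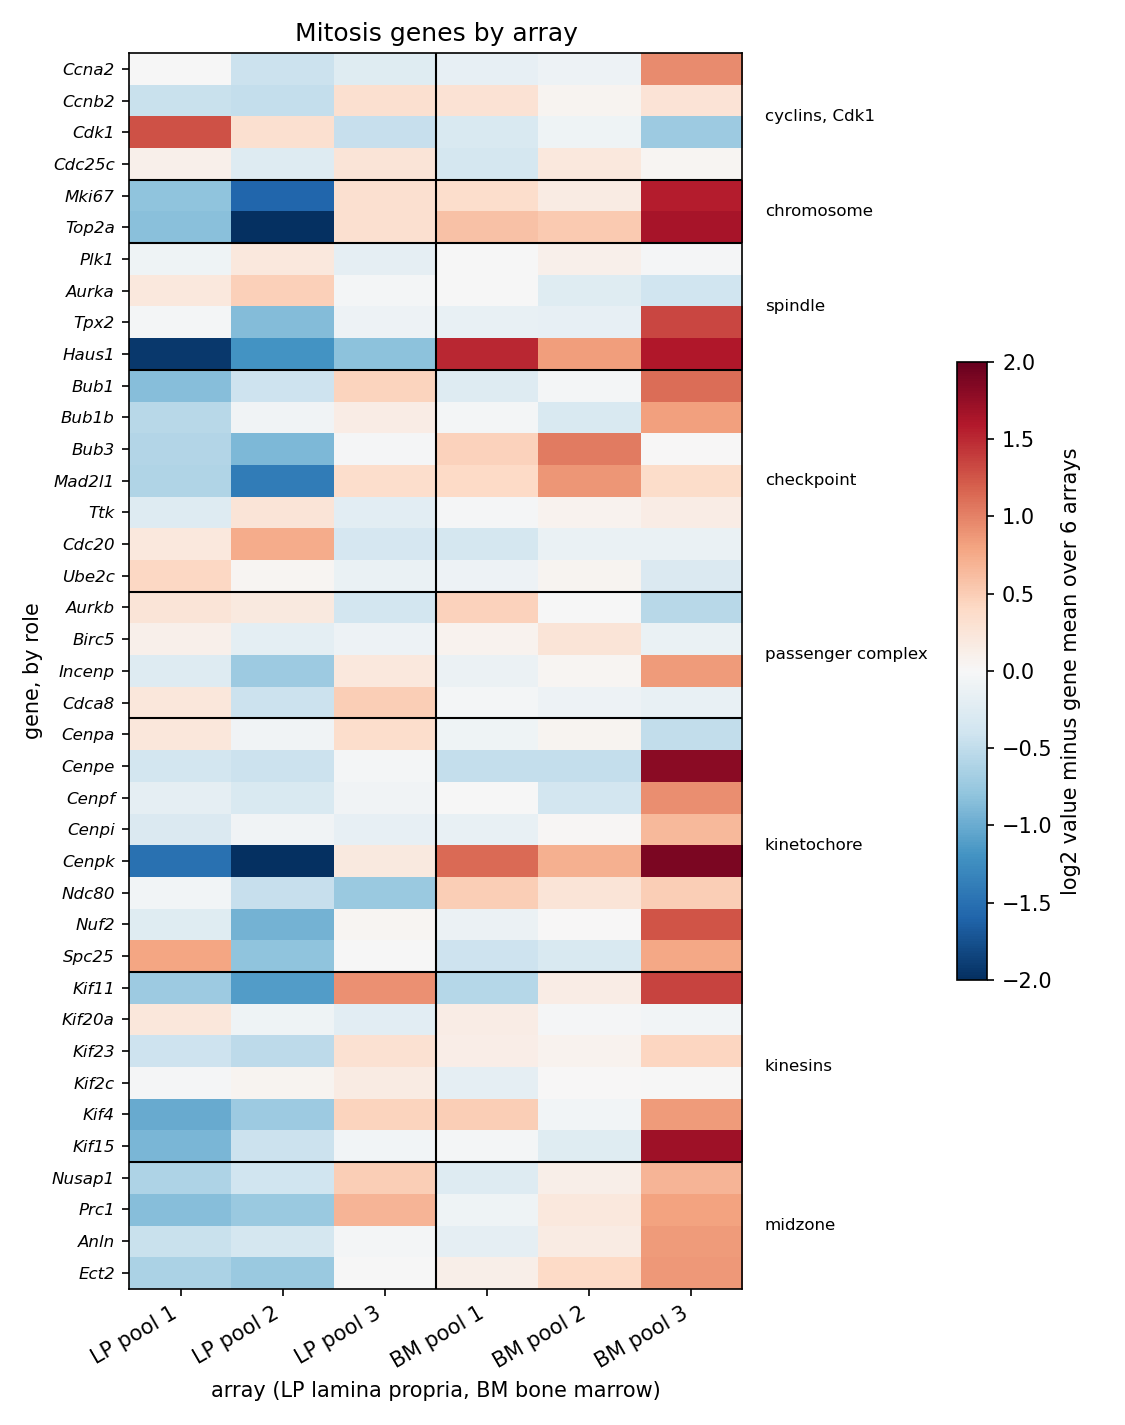
Log2 RMA values of the 39 measured mitosis genes (rows, by role) in the 6 arrays (columns), each minus the gene's mean over the arrays, with red above and blue below that mean and the colour at its limit for values beyond 2 in either direction. Bone marrow (BM) pool 3 is the reddest column, and lamina propria (LP) pools 1 and 2 are the bluest. In Cdk1, Aurka and Cdc20 lamina propria pools 1 and 2 lie above every marrow pool.

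The pools of a tissue were not alike, and 2 contrasts within the tissues bear on every value below. Lamina propria pools 1 and 2 correlated with the other 4 arrays at r = 0.766 to 0.832 across genes, where genes are not independent replicates, while lamina propria pool 3 correlated with the marrow arrays at 0.954 to 0.966. The interquartile range over probe sets was 2.00 and 1.94 in lamina propria pools 1 and 2, and 2.41 to 2.47 in the other 4 arrays. Against the marrow mean, the median mitosis gene stood at -0.52, -0.68 and -0.20 in lamina propria pools 1, 2 and 3, where the median of all genes stood at 0.31, 0.31 and -0.01. Marrow pool 3 in turn stood 0.61 above the mean of marrow pools 1 and 2 for the median member, against -0.02 for all genes. Without marrow pool 3 the list's median difference was -0.12, where that of all genes was 0.20. Without lamina propria pool 3 it was -0.67, against 0.33 for all genes. With lamina propria pool 3 as the lone lamina propria array it was -0.20, against -0.01 for all genes. Values given below for parts of the list under these settings are read beside the same medians of all genes. Set against marrow pools 1 and 2 only, lamina propria pool 3 stood at 0.06 for the median member and -0.02 for all genes.

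**Figure D2:**
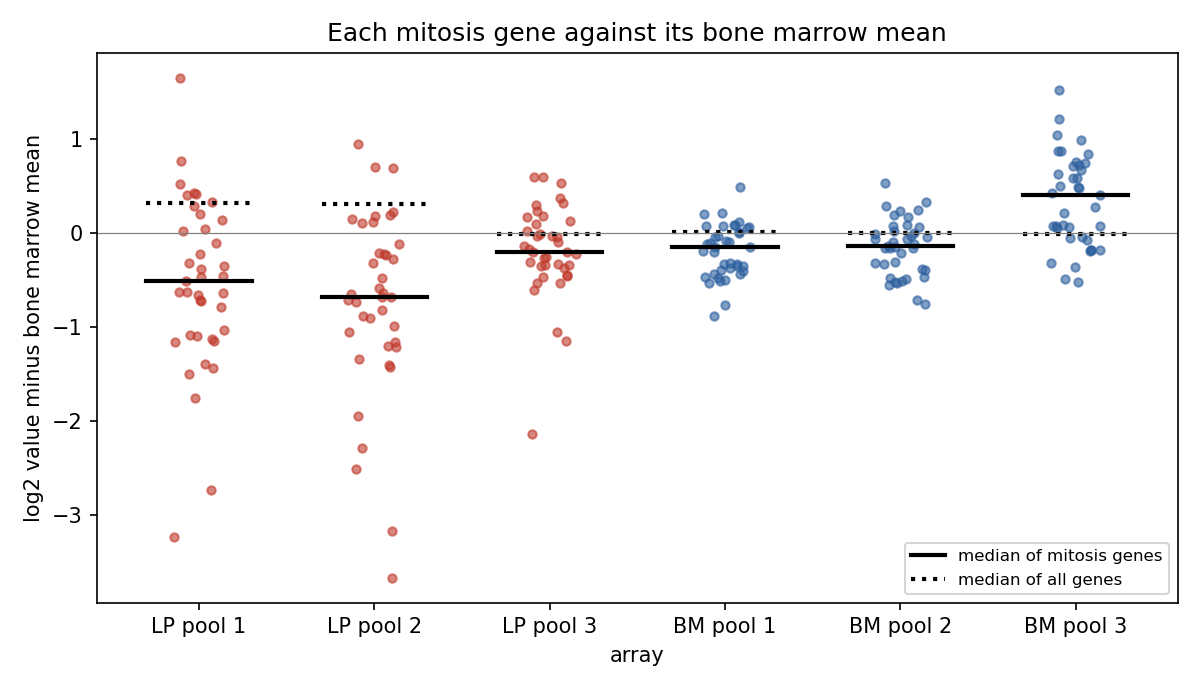
Each point is 1 of the 39 mitosis genes in 1 array, as its log2 RMA value minus its bone marrow mean; solid bars are medians of the mitosis genes and dotted bars medians of all genes. The solid bar lies below the dotted one in the 3 lamina propria arrays and in marrow pools 1 and 2, and above it in marrow pool 3 (0.41 against -0.01).

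Mki67 and Top2a, the most widely used proliferation markers, were both lower in the lamina propria pools on average. Top2a encodes the topoisomerase that untangles replicated chromosomes. Its log2 values were 7.22, 5.80 and 8.37 in lamina propria pools 1 to 3 and 8.65, 8.59 and 9.70 in bone marrow pools 1 to 3. The tissues did not overlap, but lamina propria pool 3 came close to marrow pools 1 and 2, and marrow pool 3 lay above both. Lamina propria averaged 7.13 ± 1.29 and bone marrow 8.98 ± 0.62 (SD over 3 pools), which is 3.59-fold lower, or -1.84 with a 95% interval from -3.33 to -0.36 (limma adjusted p = 0.356). Mki67 encodes Ki-67, which coats mitotic chromosomes. Its values were 6.90, 6.12 and 8.03 in lamina propria pools 1 to 3 and 8.06, 7.88 and 9.28 in the marrow pools. Here the tissues overlapped, since lamina propria pool 3 lay above marrow pool 2. The difference was -1.39 (95% interval -2.67 to -0.10, limma adjusted p = 0.356). For both genes lamina propria pool 2 was the lowest array and marrow pool 3 the highest.

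The cyclin and Cdk1 group had 2 of its 4 measured members below 0 and 2 above, with a median of -0.17 that was 0.01 without marrow pool 3. Cdk1, the kinase that starts mitosis, was the member with the most positive difference of all 39. It read 7.54, 6.58 and 5.80 in lamina propria pools 1 to 3 and 5.97, 6.18 and 5.54 in the marrow pools. Lamina propria pools 1 and 2 lay above all marrow pools, pool 3 lay inside their range, and marrow pool 3, the highest array for Top2a, was the lowest for Cdk1. The difference was 0.75 (95% interval -0.27 to 1.77, limma adjusted p = 0.367), and -0.09 with lamina propria pool 3 alone. Ccna2 encodes cyclin A2, which acts in S phase and G2. It read 6.26, 5.84 and 6.03 in the lamina propria pools and 6.10, 6.16 and 7.20 in the marrow pools, so only marrow pool 3 stood apart, and the difference was -0.44 (95% interval -1.22 to 0.33). Ccnb2, a B-type cyclin, and Cdc25c, the phosphatase that activates Cdk1, differed by -0.40 and 0.07, the latter with a sign that turned after centring, quantile and loess normalization.

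Among the spindle pole and spindle assembly genes, Haus1 gave the largest difference of the 39 members in either direction. HAUS1 is a subunit of augmin, the complex that branches new microtubules off existing spindle microtubules. It read 5.04, 5.76 and 6.14 in lamina propria pools 1 to 3 and 8.48, 7.80 and 8.56 in the marrow pools. All 3 lamina propria pools lay well under the lowest marrow pool, and lamina propria pool 3 stood 2.14 under the marrow mean. Lamina propria averaged 5.65 ± 0.56 and bone marrow 8.28 ± 0.42 (SD over 3 pools), which is 6.19-fold lower, or -2.63 with a 95% interval from -3.44 to -1.82. It missed the threshold in limma (adjusted p = 0.155) and passed with an intensity trend and robust variances (limma adjusted p = 0.0454), a setting that called 0.196% of all genes lower and 0.00502% higher. The other augmin subunits measured were picked after their values were seen, and Haus6 shared this in part, with a difference of -1.56. Its lamina propria pools 1 and 2 read 4.75 and 4.50, below the marrow pools (6.48 to 7.76), and pool 3 read 6.86, inside their range. Haus7 differed by -0.23, Haus4 by -0.08, Haus2 by 0.01, Haus5 by 0.30 and Haus8 by 0.37.

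The other 3 genes of this group showed no lower lamina propria level shared by all pools. Aurka encodes the kinase that matures the spindle poles. It read 6.29, 6.56 and 6.03 in the lamina propria and 6.07, 5.83 and 5.68 in the marrow, a difference of 0.43 (95% interval -0.10 to 0.97) with lamina propria pool 3 inside the marrow range. Tpx2, which activates that kinase on the spindle, stood at 7.09 in marrow pool 3 and between 4.89 and 5.71 in the other 5 arrays, and its difference was -0.68. Plk1, a kinase used at nearly every step of mitosis, read 4.56, 4.86 and 4.47 in the lamina propria and 4.63, 4.75 and 4.62 in the marrow, a difference of -0.04 (95% interval -0.51 to 0.43) that lay within the spread of either tissue.

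The spindle checkpoint holds anaphase until every kinetochore is attached, through a complex of MAD2, BUBR1, BUB3 and CDC20. Of the 7 members of this group 5 were below 0 and 2 above, with a median of -0.32 and no overlap for Mad2l1 and Bub3. Mad2l1 encodes MAD2. It read 6.59, 5.79 and 7.54 in lamina propria pools 1 to 3 and 7.59, 8.07 and 7.56 in the marrow pools, so lamina propria pool 3 lay just under the lowest marrow pool. The difference was -1.10 (95% interval -2.11 to -0.09, limma adjusted p = 0.356). Bub3 read 5.67, 5.35 and 6.23 in the lamina propria and 6.72, 7.29 and 6.27 in the marrow, again with lamina propria pool 3 next to a marrow pool, and differed by -1.01 (95% interval -1.80 to -0.21). In contrast with most members, Bub3 and Mad2l1 were lowest in pool 3 among the marrow pools.

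The remaining checkpoint genes overlapped between the tissues. Bub1b, which encodes BUBR1, read 5.44, 5.94 and 6.16 in the lamina propria and 5.96, 5.70 and 6.83 in the marrow, and differed by -0.32 (95% interval -1.13 to 0.49). Bub1, a kinase that places the checkpoint at kinetochores, differed by -0.54, with 6.10 in marrow pool 3 and 5.44 in lamina propria pool 3 as its highest values. Ttk, the kinase that starts the checkpoint signal, differed by -0.13. Cdc20, the activator of the anaphase-promoting complex that the checkpoint restrains, had values of 5.91, 6.43 and 5.35 in the lamina propria and 5.34, 5.57 and 5.56 in the marrow, and its difference was 0.41 (95% interval -0.29 to 1.10) through lamina propria pools 1 and 2. Ube2c, the ubiquitin-conjugating enzyme of that complex, differed by 0.21, and by -0.11 after loess normalization.

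The chromosomal passenger complex corrects wrong attachments and later marks the cleavage site, and its 4 genes went both ways, with 2 below 0 and 2 above. Their median of -0.04 was -0.24 after loess normalization and -0.21 without marrow pool 3. Aurkb, its kinase, read 6.31, 6.25 and 5.69 in the lamina propria and 6.52, 6.05 and 5.51 in the marrow. In each tissue pool 3 was the lowest, and the difference was 0.06 (95% interval -0.68 to 0.80), with the sign turned after centring and loess normalization. Birc5, which encodes survivin, read 5.44, 5.14 and 5.24 in the lamina propria and 5.41, 5.60 and 5.21 in the marrow, and differed by -0.14 (95% interval -0.63 to 0.35). Incenp, the scaffold, read 5.97, 5.50 and 6.45 in the lamina propria and 6.12, 6.27 and 7.08 in the marrow, a difference of -0.52 (95% interval -1.33 to 0.30). Cdca8, which encodes borealin, read 5.92, 5.27 and 6.19 in the lamina propria and 5.65, 5.59 and 5.55 in the marrow, and differed by 0.20, or -0.03 after loess normalization. Incenp was the 1 subunit that stood high in marrow pool 3.

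Of the 8 centromere and kinetochore genes 7 lay below 0 (median -0.46, and -0.05 without marrow pool 3), with no overlap for Cenpk and Ndc80. Cenpk belongs to the inner kinetochore network that sits on centromeric chromatin. It read 4.40, 3.47 and 6.09 in lamina propria pools 1 to 3 and 7.04, 6.61 and 7.77 in the marrow pools, with lamina propria pool 3 below but near marrow pool 2. The difference was -2.49 (95% interval -3.99 to -0.98) or 5.60-fold (limma adjusted p = 0.313). Its direct partners, of which Cenph and Cenpm were picked after their values were seen, were uneven: Cenph differed by -1.50 with no overlap, Cenpi by -0.35 and Cenpm by 0.36.

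The 4-subunit NDC80 complex is the part of the kinetochore that holds microtubules. Ndc80 read 6.87, 6.46 and 6.19 in the lamina propria and 7.42, 7.18 and 7.42 in the marrow. It is the 1 member without overlap in which lamina propria pool 3 was the lowest array, and it differed by -0.83 (95% interval -1.39 to -0.28, limma adjusted p = 0.342). Its partner Nuf2 differed by -0.77 with overlap, Spc25 by -0.03 and Spc24, picked after its value was seen, by -0.21. Cenpa, the histone H3 variant that marks centromeres, read 6.66, 6.37 and 6.79 in the lamina propria and 6.35, 6.49 and 5.94 in the marrow, a difference of 0.35 (95% interval -0.21 to 0.90). Cenpe, a kinesin that moves chromosomes to the spindle equator, stood at 7.78 in marrow pool 3 and between 5.49 and 5.93 in the other 5 arrays, so its difference of -0.57 was 0.19 without that pool. Cenpf, a large kinetochore protein, had the same shape, with 6.92 in marrow pool 3 and 5.62 to 5.99 elsewhere.

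**Figure D3:**
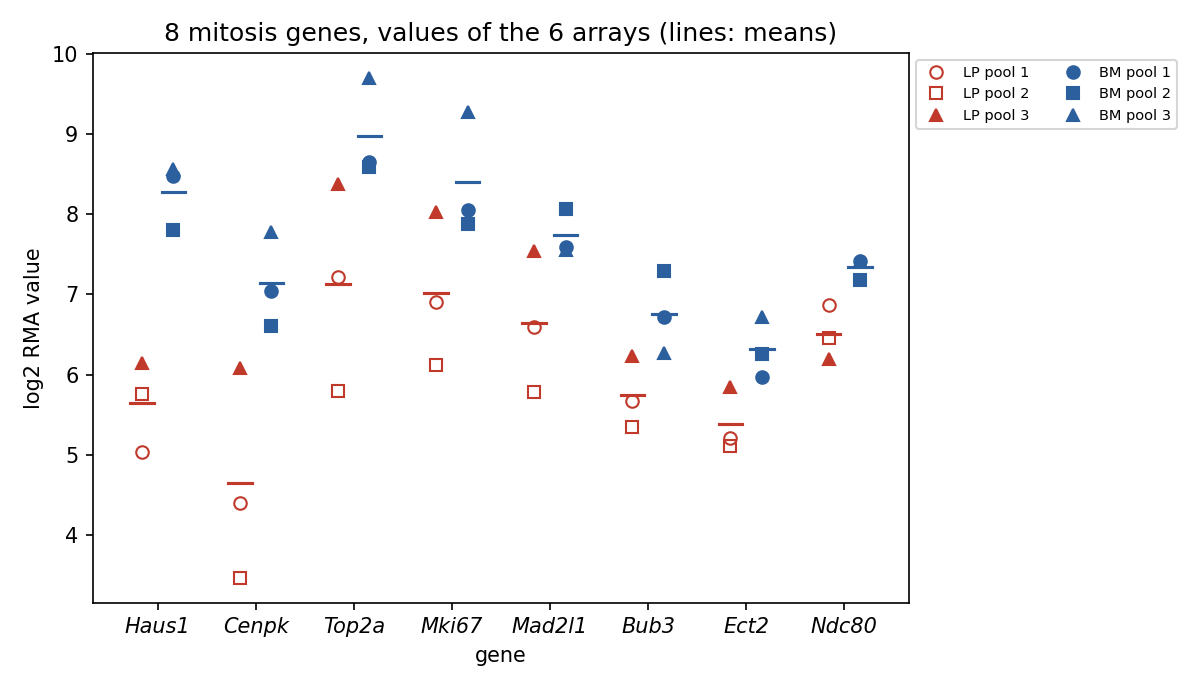
Log2 RMA values of the 8 mitosis genes with an unadjusted limma p under 0.05, with lamina propria (LP) pools in red, bone marrow (BM) pools in blue and horizontal lines for the means of 3 pools. Lamina propria pool 3 (filled triangle) lies closest to the marrow pools in each gene but Ndc80, and Mki67 is the gene whose tissues overlap.

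The mitotic kinesins push, slide and depolymerise spindle microtubules, and 5 of the 6 lay below 0 (median -0.52, and 0.06 with lamina propria pool 3 as the lone lamina propria array). Kif11, the motor that separates the spindle poles, read 5.27, 4.88 and 6.90 in lamina propria pools 1 to 3 and 5.42, 6.14 and 7.35 in the marrow pools. In both tissues pool 3 was the highest, and the difference was -0.62 (95% interval -2.12 to 0.88). Kif15, which backs up that motor, read 4.31, 4.80 and 5.18 in the lamina propria and 5.19, 4.99 and 6.92 in the marrow, a difference of -0.94 (95% interval -2.15 to 0.28) carried by lamina propria pools 1 and 2 and by marrow pool 3. Kif4, a chromosome-bound motor, differed by -0.86, Kif23, the motor of the central spindle, by -0.42 and Kif20a, which carries the passenger complex to the midzone, by -0.04. Kif2c, which takes microtubules apart at centromeres, read 4.89, 4.96 and 5.07 in the lamina propria and 4.72, 4.91 and 4.89 in the marrow, and its difference of 0.13 became -0.06 after quantile and -0.19 after loess normalization.

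All 4 midzone and cytokinesis genes lay below 0 as deposited and under the 3 other scalings, with a median of -0.58 that was 0.00 with lamina propria pool 3 as the lone lamina propria array. Ect2, which activates RhoA at the cleavage site, read 5.22, 5.11 and 5.85 in the lamina propria and 5.97, 6.26 and 6.72 in the marrow. It did not overlap, and differed by -0.93 (95% interval -1.62 to -0.24, limma adjusted p = 0.356). Prc1, which bundles midzone microtubules, read 4.53, 4.64 and 6.06 in the lamina propria and 5.29, 5.59 and 6.18 in the marrow, so lamina propria pool 3 lay near the top of the marrow range, and the difference was -0.61 (95% interval -1.66 to 0.44). Nusap1, a spindle protein that binds microtubules near chromosomes, read 4.34, 4.55 and 5.45 in the lamina propria and 4.69, 5.07 and 5.63 in the marrow, and differed by -0.35. Anln, the actin scaffold of the cleavage furrow, differed by -0.55.

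The calls depended on lamina propria pool 3. Without it limma put 12 members lower at an adjusted p under 0.05 (12.1% of all genes were lower by the same rule) and 1 higher (24.1% of all genes). Those lower were Ccnb2, Mki67, Top2a, Haus1, Bub3, Mad2l1, Cenpk, Ndc80, Kif23, Kif4, Prc1 and Ect2, and the 1 higher was Cdk1. The largest of these was Cenpk, at -3.20 (limma adjusted p = 0.0147), and the smallest in size were Ccnb2 at -0.66, Ndc80 at -0.67 and Kif23 at -0.68. With estimated array weights, which gave lamina propria pool 3 a weight of 0.153, limma put 8 members lower (11.1% of all genes) and Cdk1 higher (16.9% of all genes). In lamina propria pool 3 itself, 12 members lay below every marrow pool, 22 inside their range and 5 above, where 26.7% of all genes lay below and 24.8% above. In lamina propria pools 1 and 2 together, 19 members lay below every marrow pool (18.7% of all genes) and 3 above (51.2%). When pool numbers entered limma as a block, it called no member in either direction, where it called 0.0702% of all genes lower and 0.01% higher.

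Among genes with a marrow mean from 7 to 9, the mean of lamina propria pools 1 and 2 stood at a median of -1.16 over all genes and -2.18 over the members, so the members were also set beside all genes of their level, as a description with no test. Among genes with a marrow mean from 7 to 9 the median difference was -0.79 over 2983 genes and -1.61 over the 6 members (Mki67, Top2a, Haus1, Mad2l1, Cenpk and Ndc80). From 6 to 7 it was -0.06 over 3450 genes and -0.44 over 13 members. From 5 to 6 it was 0.30 over 5419 genes and -0.35 over 13 members, and from 4 to 5 it was 0.36 over 4241 genes and -0.04 over 7 members. The members' median lay below that of all genes in each of the 4 bands. In lamina propria pool 3 alone the 6 members of the highest band stood at a median of -0.83 and their level's genes at -0.05, while the 13 members from 5 to 6 stood at -0.03 and their level's genes at -0.02. Of the 39 members 24 had a mean above that of the median gene.

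**Figure D4:**
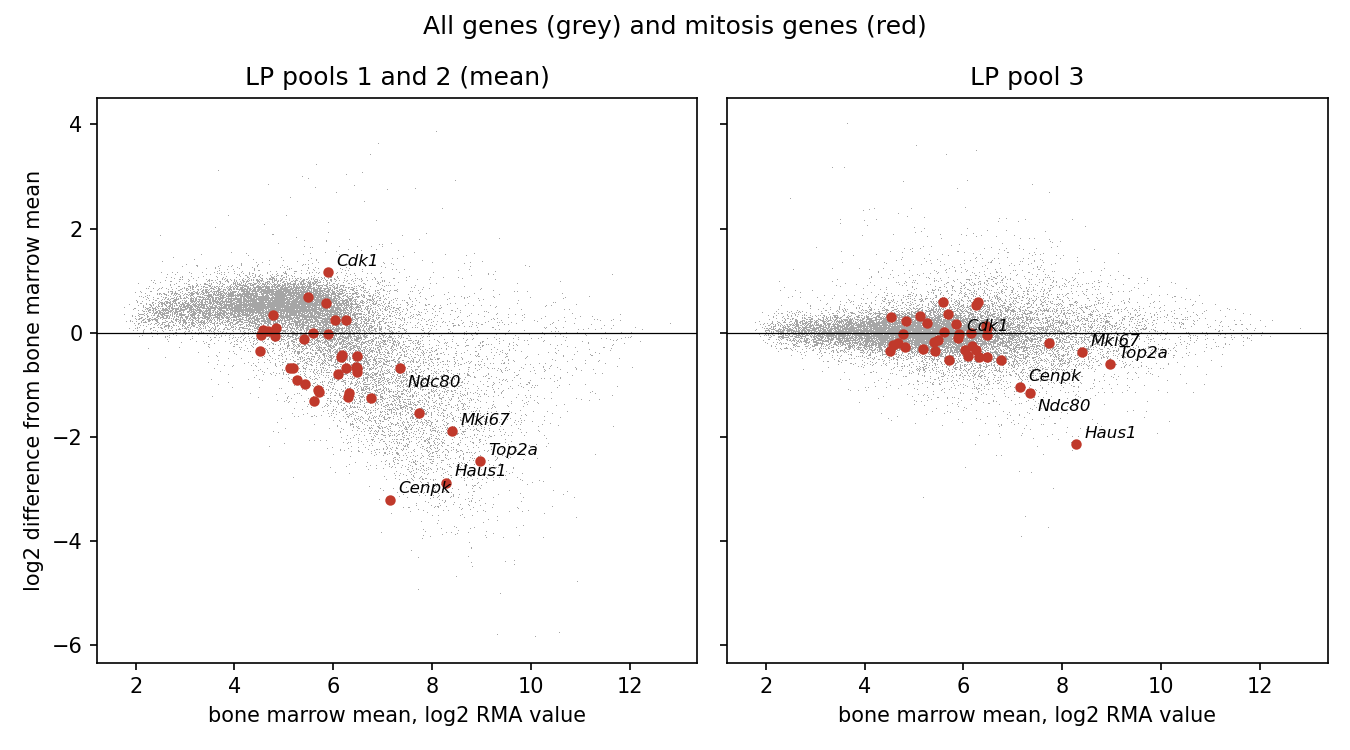
Log2 difference from the bone marrow mean against that mean, in log2 RMA units, for all 19938 genes (grey) and the 39 mitosis genes (red), with the mean of lamina propria pools 1 and 2 on the left and pool 3 on the right. On the left, grey genes of high marrow level slope downward and most red points lie under the densest part of the cloud; on the right the grey cloud is level, with Haus1 at -2.14, Ndc80 at -1.15 and Cenpk at -1.05 the lowest members.

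Within the bone marrow, pool 3 carried more mitosis transcript for a part of the list. It was the highest of all 6 arrays for 21 of 39 members (12.4% of all genes) and lay more than 1 log2 unit above the mean of marrow pools 1 and 2 for 11 (2.67% of all genes). These 11 were Cenpe, Kif15, Kif11, Tpx2, Nuf2, Mki67, Bub1, Spc25, Cenpf, Top2a and Ccna2, with Cenpe 2.28 and Kif15 1.83 above. Another 11 members lay below that mean, among them Aurkb (-0.78), Bub3 (-0.74), Cdk1 (-0.54), Cenpa (-0.48), Birc5 (-0.29), Aurka (-0.27) and Ube2c (-0.27). Genes of 1 complex thus parted in this pool: Nuf2 and Spc25 were 1.32 and 1.13 above and Ndc80 0.12 above, and Incenp was 0.88 above where its kinase Aurkb was below. The 22 measured members with the CHR motif near the start had a median of 0.23 in this pool and the 10 without it 0.85, a difference that was not tested. Of the 11 measured B lineage markers 7 were lower in the same pool than the mean of marrow pools 1 and 2 and 4 higher. Cd79a, a signalling chain of the B cell receptor, read 6.27 against 8.17 and 8.00 in marrow pools 1 and 2, Pax5 8.47 against 10.29 and 9.95, and Igll1 9.59 against 11.07 and 11.43, which were the 3 largest gaps. Those higher were Cd24a by 0.29, Rag1 by 0.19, Rag2 by 0.16 and Vpreb1 by 0.03. The list had a median of -0.29 in marrow pool 3 against pools 1 and 2, and its part in the result was not tested.

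The other cell cycle genes listed showed where the mitosis genes lie among them. No gene of these lists passed in limma over all genes. The counts below 0 are read beside the 32.4% of all genes, and those lower without overlap beside 7.27%. The share below 0 rose with level, to 54.17% of all genes at a marrow mean from 6 to 7 and 83.67% from 7 to 9. Marrow array medians ran from 7.06 to 7.26 for the replication list and from 6.77 to 8.34 for the condensin and cohesin list. For the anaphase-promoting complex list they ran from 6.82 to 7.06, so these lists are read beside the shares at their level. The 35 DNA replication genes had a median of -0.56 with 31 below 0 and 5 without overlap on the lower side, and they stood at 0.10 in lamina propria pool 3. Pcna, the sliding clamp of replication, differed by -0.57 with no overlap and Uhrf1, a factor in the copying of DNA methylation, by -0.42. The 16 condensin, cohesin and shugoshin genes had a median of -0.59 with 14 below 0, though the abundant cohesin genes Smc1a and Smc3 differed by -0.40 and -0.02. In marrow pool 3 the condensin and cohesin list stood 0.45 above marrow pools 1 and 2 and the replication list 0.21, against 0.61 for the mitosis genes.

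The 23 genes of the anaphase-promoting complex and mitotic exit had a median of -0.70 with 18 below 0. Among them Anapc13, a small subunit, read 4.22 and 5.40 in lamina propria pools 1 and 2 and 10.19 in pool 3, inside the marrow range of 10.09 to 10.87, and Anapc5 differed by -1.58 with overlap. The 27 other kinetochore genes had a median of -0.24 with 20 below 0, and 6 lay lower without overlap, among them Ska2, which helps couple kinetochores to microtubules, at -1.26 (95% interval -1.74 to -0.78). Pmf1 of the same list differed by 0.78. The 24 other spindle and cytokinesis genes had a median of 0.00 with 12 below 0 (-0.26 after loess normalization), with Numa1, a spindle pole organiser, at -0.42 and Ckap5, a microtubule polymerase, at -1.49. Racgap1, the partner of Kif23 and picked after its value was seen, differed by 0.34.

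The transcription regulators of G2/M genes had a median of -0.29 with 17 of 22 below 0. Their marrow array medians ran from 6.54 to 6.82, and 54.17% of all genes lay below 0 from 6 to 7. Foxm1, the forkhead activator of G2/M genes, read 5.87, 5.71 and 5.82 in the lamina propria and 6.15, 6.06 and 6.20 in the marrow. The tissues did not overlap but lay close together, and the difference was -0.34 (95% interval -0.77 to 0.09). Mybl2, which encodes B-Myb, differed by -0.06, and the E2F partners Tfdp1 and Tfdp2 by -0.18 and -0.03. Of the 10 G1 cyclins and kinases 8 lay below 0 (median -0.36). Their marrow array medians ran from 7.09 to 7.78, and 83.67% of all genes lay below 0 from 7 to 9, near the share of this list. Cdk6 differed by -1.86, Cdc25b by -0.55, Ccnd3, the D-type cyclin of pre-B cells, by -0.38 and Ccnd2 by -0.12, all with overlap. The 13 inhibitors had a median of 0.20 with 5 below 0. Their marrow array medians ran from 7.10 to 7.40, so they are read beside the same 83.67%. Cdkn1b, which encodes p27, differed by 0.38, and the antiproliferative genes Btg1 and Btg2 by 0.15 and -0.12. Cdkn2c, which encodes p18, differed by -0.65 with no overlap. Cdkn1a, which encodes p21, had no probe set named for it alone and is not analysed here.

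Levels of markers checked what the sorted cells were and what else the gates could hold. The 11 measured B lineage markers had array medians from 9.68 to 10.04 in the lamina propria and 9.48 to 10.38 in the marrow, with 9 of 11 below 0, and Vpreb1, a chain of the surrogate light chain, stood at 11.92, 11.71 and 11.67 in lamina propria pools 1 to 3. Erythroid markers, of which 5 of 8 were measured, all lay above 0. Their medians ran from 5.46 to 5.77 in the lamina propria and 5.31 to 5.42 in the marrow. Granulocyte markers had medians from 5.09 to 5.65 and 4.97 to 5.82 (4 below 0 and 4 above). T cell markers had medians from 5.13 to 5.63 in the lamina propria and 4.82 to 4.93 in the marrow with 10 of 10 above 0, and intestinal epithelium markers 5.12 to 5.43 and 4.62 to 4.88 with 10 of 11 above 0. Among all genes of that level in the marrow, 7.76% lay below 0 from 4 to 5 and 19.67% from 5 to 6, so most dim genes lay above 0 too. In lamina propria pool 3 alone the median of all genes against the marrow mean was 0.01 from 4 to 5 and -0.02 from 5 to 6. In that pool the T cell markers stood at a median of 0.23 and the epithelium markers at 0.45. Macrophage and dendritic cell markers had medians from 5.18 to 5.35 and 5.23 to 5.46 (5 below 0 and 3 above). Plasma cell markers had medians from 5.14 to 5.82 and 5.05 to 5.58 (2 below 0 and 5 above). Single markers stood apart from these medians. Without overlap, Jchain differed by 1.41, Olfm4 by 1.31 and Csf1r by 0.71, while Cd68 differed by -0.71 and Lgr5 by -1.27. S100a9 read 9.26 in marrow pool 2 and 5.30 to 5.63 in the lamina propria, while Elane, also a granulocyte marker, differed by 0.55 the other way. Lyz2 read 7.88 in lamina propria pool 3 and 6.29 to 6.94 in the marrow. The array medians over all genes ran from 5.39 to 5.62, and the part of these cell types in the differences of the mitosis genes was not tested.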

How the data were processed

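Total RNA (4.5 to 47 ng) was amplified with a whole-transcriptome kit and labelled with biotin, per the labels' protocols. The values are log2, and the authors summarised them by RMA before deposit; the submitters' processing notes name Affymetrix Expression Console 1.3.0.187. RMA settings and any later centring are not stated in those notes. Values were used as deposited. Of 35556 probe sets, 21789 had 1 gene symbol in the platform's table, 1621 had several and 12146 were unnamed. Each gene was represented by its probe set with the highest mean. Symbols were checked through Entrez identifiers against the RefSeq table of GRCm38.p6.

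The 2 tissues were compared with limma 3.58.1 (R 4.3.3), using lmFit and eBayes without a block. Tests were two-sided, and p-values were adjusted over 19938 genes by the method of Benjamini and Hochberg at a threshold of 0.05. Intervals use the moderated variances. The replicate is the pool, so p-values measure only the spread between 3 pools a tissue. Lists are described by counts and medians, with no set test. The members, lists and alternatives were chosen with earlier results of these data known. Per-array values are given for a fixed set of members and the extremes of each role group, and related lists name their 2 genes of highest mean and a fixed few. The labels do not say that pool numbers pair the tissues, so the numbers were not taken as pairs. Deviations of pools with the same number correlated at 0.131, 0.0513 and 0.226 across genes. With 3 pools a tissue these values cannot decide whether the pools were paired. The limma step was tested on simulated data. Both simulated tissues were given the marrow spread, so that test did not cover the spread of the lamina propria pools.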

Additional observations from a re-analysis of the deposited data

How the results depend on the processing

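Each result was recomputed with the pool number as a replicate block, 3 other scalings, robust variances with a trend on intensity, a filter on dim genes, weights for arrays, the mean of all probe sets, each array left out, and lamina propria pools 1 and 2 left out. Over all genes limma called 0 as reported, 0 at a threshold of 0.01, 16 with the replicate block (none of them a mitosis gene), 40 with the trend, 5586 with array weights and between 0 and 7222 with 1 array left out. Mitosis genes called lower numbered 0 as reported, 1 with the trend, 8 with array weights and 0 to 12 with 1 array left out. Those lower without overlap numbered 7 to 19 with 1 array left out (19 is 48.7% of members, without lamina propria pool 3, against 18.7% of all genes). Without lamina propria pools 1 and 2 they numbered 12, or 30.8%, near the 26.7% of all genes. The median of the mitosis genes stayed below 0 in every alternative. With 1 array left out it ran from -0.67 (without lamina propria pool 3) to -0.12 (without marrow pool 3), where all genes stood at 0.33 and 0.20. The median of the mitosis genes was 0.06 when lamina propria pool 3 was set against marrow pools 1 and 2 only, which was not among these alternatives. Medians that moved beyond the spread of arrays were those of the other kinetochore genes (-0.47 after loess, -0.48 with the filter, -0.42 to -0.23 with 1 array left out), the other spindle genes (-0.26 after loess, -0.25 with the filter), the regulators (-0.054 after quantile normalization, -0.11 after loess) and the replication genes (0.10 without lamina propria pools 1 and 2).

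Of 39 members 19 kept their sign in every alternative, and 20 did not. Signs turned without lamina propria pools 1 and 2 for Ccnb2 (0.12), Cdk1 (-0.093), Bub1 (0.18), Cdc20 (-0.14), Ube2c (-0.032), Aurkb (-0.34), Kif11 (0.60), Kif23 (0.10), Kif4 (0.0198), Nusap1 (0.32) and Prc1 (0.37). They turned after centring for Cdc25c (-0.028) and Aurkb (-0.0415), after quantile normalization for Cdc25c (-0.17), Spc25 (0.0445) and Kif2c (-0.064), and after loess for Cdc25c (-0.26), Ube2c (-0.11), Aurkb (-0.0515), Cdca8 (-0.026) and Kif2c (-0.19). With array weights they turned for Spc25 (0.33) and Kif20a (0.047). With 1 array left out the differences ran from -0.091 to 0.21 for Cdc25c, -0.15 to 0.0405 for Plk1, -0.55 to 0.0145 for Bub1b, -0.20 to 0.30 for Aurkb, -0.95 to 0.19 for Cenpe, -0.64 to 0.0105 for Cenpf, -0.42 to 0.37 for Spc25 and -0.17 to 0.0471 for Kif20a. The cause was not tested. With 3 arrays a tissue, differences near the spread between pools could not be resolved, and the 15 members whose mean is not above that of the median gene are the dimmest measured.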

Other observations

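Top2a had 3 further probe sets, none of which entered the comparison of genes. The second probe set named for Top2a alone read 2.77, 4.50 and 3.51 in lamina propria pools 1 to 3 and 3.63, 3.67 and 3.96 in the marrow pools, a difference of -0.16. A pair of probe sets listed for both Top2a and Hibadh differed by -0.92 and -1.30, with lamina propria pool 1 at 2.54 and 2.55 and the other arrays between 5.77 and 6.91. In these probe sets marrow pool 3 was again the highest of the marrow pools, at 6.46 and 6.91, while lamina propria pool 2, the lowest array for the Top2a probe set used above, stood at 6.75 and 6.18.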
